A study of Mus musculus with 3 samples.

Results

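The Fos, Jun and Egr transcription factors were followed in NIH3T3 cells, an established line of mouse embryonic fibroblasts, after stimulation with GDF15 or TGF-β. The 10 members, *Fos*, *Fosb*, *Fosl1*, *Fosl2*, *Jun*, *Junb*, *Jund*, *Egr1*, *Egr2* and *Egr3*, were taken by gene symbol, as families proposed with earlier results of these data known, and each occupied 1 of the 15554 rows of the expression table. The cells were kept in serum-free IMDM and received no stimulation (CTRL), GDF15 protein at 100 ng/mL or TGF-β protein at 4 ng/mL for 24 h, after a first period in serum-free medium that all groups shared. The RNA of a treatment was pooled into a single stranded mRNA library, which leaves the differences below without replicates and without p-values. In bulk RNA from such a culture, fewer cells expressing a gene and less RNA per cell cannot be told apart. The label of fibroblast was checked against 8 marker genes (such as *Col1a1*, *Vim* and *Thy1*), which were all above an FPKM of 1 in the 3 libraries. Of 12 markers of other cell types, 11 stayed under an FPKM of 1 in every library, and the summed FPKM of the 12 was between 2.33 and 2.93. The exception, the macrophage gene *Cd68*, reached an FPKM of 1.67.

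As background, Fos and Jun proteins pair through a leucine zipper to form activator protein 1 (AP-1), which binds DNA at sites such as TGAGTCA. Jun proteins can pair with each other, whereas Fos proteins need a partner. Egr proteins are zinc finger factors that bind GC-rich sites and are held back by the NAB corepressors. *Fos*, *Fosb*, *Jun*, *Junb* and the *Egr* genes are immediate early genes, whose transcripts appear within minutes of serum or growth factor addition through serum response factor (SRF), ternary complex factors and MAP kinases, and then decay. *Fosl1* and *Fosl2*, which encode Fra-1 and Fra-2, follow later and last longer, and *Jund* is transcribed in resting cells. A time of 24 h therefore lies well after the early peak.

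Promoter windows of 300 bases, from 250 bases before to 50 bases after the transcript start, were taken from RefSeq (GRCm38.p6) for 7 of the 10 members, and those of *Fosl1*, *Egr1* and *Egr3* were not analysed here. The windows of 4 members are printed below because they hold matches to the sites of AP-1, cyclic AMP response element binding protein (CREB), Egr and SRF, and capitals mark matches to the motifs searched on both strands. In *Jun* (chr4:95052173-95052472, minus strand) the match is TGACATCA, a variant AP-1 site that begins 45 bases before the start. In *Fos* (chr12:85473640-85473939, plus strand) it is TGACGTA, part of a cyclic AMP response element, beginning 66 bases before the start. In *Fosb* (chr7:19309996-19310295, minus strand) it is the Egr site GCGGGGGCG, beginning 50 bases before the start. In *Egr2*, which has several annotated starts, the window shown (chr10:67537619-67537918, plus strand) holds a CArG box, the binding site of SRF, beginning 72 bases before the start.
Jun: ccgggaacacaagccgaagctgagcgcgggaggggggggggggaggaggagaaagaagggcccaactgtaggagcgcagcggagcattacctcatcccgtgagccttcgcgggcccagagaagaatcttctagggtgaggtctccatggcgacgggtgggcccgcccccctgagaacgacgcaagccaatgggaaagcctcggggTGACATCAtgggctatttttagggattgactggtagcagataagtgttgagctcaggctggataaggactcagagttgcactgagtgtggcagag
Fos: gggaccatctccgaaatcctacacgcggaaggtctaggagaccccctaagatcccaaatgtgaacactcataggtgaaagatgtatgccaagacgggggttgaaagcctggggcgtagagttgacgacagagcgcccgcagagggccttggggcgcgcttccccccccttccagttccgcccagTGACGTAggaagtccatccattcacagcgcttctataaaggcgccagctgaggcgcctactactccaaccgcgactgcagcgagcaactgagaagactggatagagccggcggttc
Fosb: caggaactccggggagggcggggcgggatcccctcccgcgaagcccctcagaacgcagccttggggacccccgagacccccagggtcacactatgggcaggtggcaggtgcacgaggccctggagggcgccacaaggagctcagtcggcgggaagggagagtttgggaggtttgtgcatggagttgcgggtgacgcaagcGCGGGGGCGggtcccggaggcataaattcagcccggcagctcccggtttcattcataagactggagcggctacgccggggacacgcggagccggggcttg
Egr2: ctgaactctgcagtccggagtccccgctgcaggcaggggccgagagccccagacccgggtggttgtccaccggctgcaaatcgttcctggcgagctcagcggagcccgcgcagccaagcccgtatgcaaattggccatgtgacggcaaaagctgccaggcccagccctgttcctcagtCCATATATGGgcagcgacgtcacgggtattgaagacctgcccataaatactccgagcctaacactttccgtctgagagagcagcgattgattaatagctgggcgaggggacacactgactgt
Among 32851 promoter windows of this length, 3.62% hold TGACATCA, 1.27% hold TGACGTA, 2.91% hold GCGGGGGCG and 1.63% hold a CArG box. The Egr site was also found in the window of *Fosl2*, 79 bases before the start. None of the windows of these 7 members held TGAGTCA or the full element TGACGTCA, which occur in 5.20% and 1.79% of all windows. The *Jund* window (chr8:70697489-70697788, plus strand) ends before the start of the gene as given below (70698949). The sequence next to that start of *Jund* was therefore not searched. A match describes letters only, and binding was not measured.

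Expression is given as FPKM, the number of fragments for each kilobase of transcript and each 1e6 mapped fragments, and is therefore a level per transcript length. The step that a single fragment makes in low FPKM values gave a depth of about 17.0 times 1e6 fragments for CTRL, 19.9 times for GDF15 and 16.3 times for TGF-β. In CTRL, *Jun* was the highest member, with an FPKM of 94.4, and was higher than 96.8% of all rows. It was followed by *Fosl2* (41.6), *Jund* (37.5), *Egr1* (27.4), *Junb* (19.7) and *Fosl1* (17.1). The remaining members were far lower, with an FPKM of 3.48 for *Egr3*, 3.23 for *Egr2*, 1.12 for *Fosb* and 0.734 for *Fos*. The namesake *Fos* was thus the lowest of the 10. Counting error alone separated most neighbours in this order. *Egr3* and *Egr2* were not separated in CTRL, with a ratio of 1.08 (95% interval 0.877 to 1.32), nor were *Fosb* and *Fos*, with a ratio of 1.53 (0.973 to 2.52). These intervals are exact (Clopper-Pearson) intervals on estimated fragment numbers. They cover counting error only, and not the differences between cultures.

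**Figure D1:**
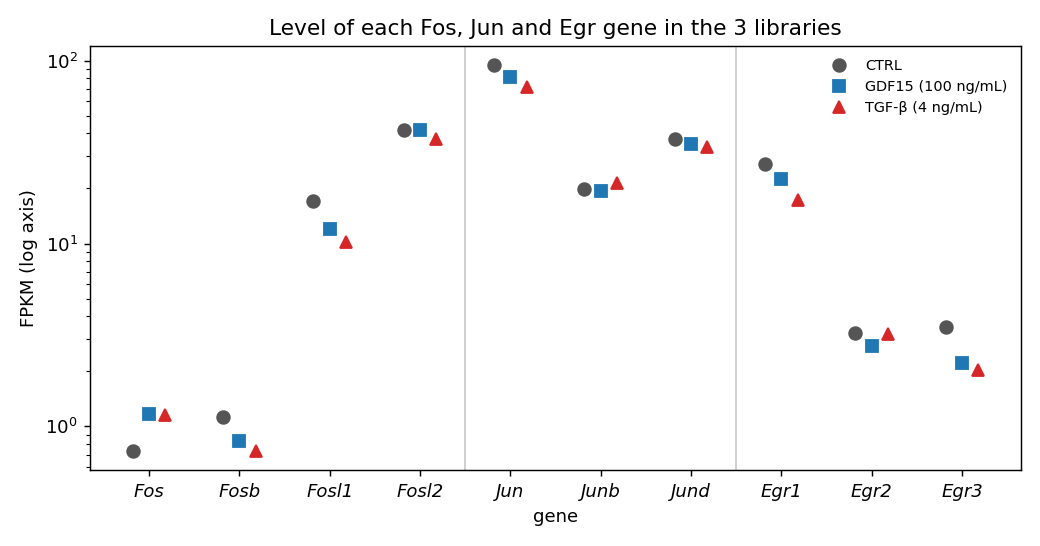
FPKM (log axis) of the 10 members in the CTRL, GDF15 and TGF-β libraries, 1 point per library, with grey lines between the Fos, Jun and Egr families. *Jun* is highest in every library, between 71.6 and 94.4, while *Fos* and *Fosb* lie near 1.

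The order of levels shifted at 3 places. *Egr1* was above *Junb* in CTRL and GDF15 (27.4 against 19.7 and 22.4 against 19.4), and below it in TGF-β (17.2 against 21.3, a ratio of *Junb* to *Egr1* of 1.24 with an interval of 1.13 to 1.37). *Egr3*, which was just above *Egr2* in CTRL, was below it in GDF15 and in TGF-β. The ratio of *Egr2* to *Egr3* was 1.24 (0.994 to 1.54) in GDF15 and 1.57 (1.23 to 1.99) in TGF-β. *Fos* was below *Fosb* in CTRL and above it in both stimulated libraries, by a ratio of 1.40 (0.941 to 2.06) in GDF15 and 1.57 (1.02 to 2.50) in TGF-β.

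To ask whether either stimulus altered these genes, the change was calculated as the difference of log2(FPKM + 1) between libraries, a scale that compresses the change of weakly expressed genes. No member passed the 2-fold criterion used by the study, by GDF15 or by TGF-β. In all rows, 0.289% passed it by GDF15 and 0.913% by TGF-β. At a smaller criterion of 1.5-fold, 0 of the 10 members passed by GDF15, where 1.81% of all rows did, and 2 passed by TGF-β, where 3.60% did. Both of these, *Fosl1* and *Egr1*, were lower in TGF-β, as were 1.95% of all rows and 3.06% of the 9226 rows whose mean FPKM was 1 or more. The changes by GDF15 ran from -0.48 to 0.32 with a median of -0.19, and those by TGF-β from -0.70 to 0.31 with a median of -0.22. The median over these 9226 better expressed rows was -0.03 and -0.07 in the same order. By each stimulus, 8 of the 10 members were below CTRL, where 55.6% (GDF15) and 62.8% (TGF-β) of these 9226 rows were. This count was 6 by GDF15 and 7 by TGF-β with FPKM scaled to a common sum, and 6 of the 9 members tested by each stimulus with the running median by transcript length subtracted. At a common sum the members had a median of -0.09 by GDF15 and -0.15 by TGF-β. That of the better expressed rows was 0.07 and 0.01. With the length median subtracted, the 9 members were at -0.15 and -0.16, and the rows at 0.00 by each stimulus. The share of rows below CTRL was not calculated under these settings. Both comparisons use the same CTRL library, so their directions are not independent.

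As a yardstick in place of replicates, the changes were divided by a local spread, the scaled median absolute deviation among the gene and the 500 rows closest to it in mean expression. For the members it was between 0.20 and 0.24 by GDF15 and between 0.20 and 0.28 by TGF-β. Measured from the median of those rows, 3 members lay beyond 1 local spread by GDF15 (*Fosl1*, *Egr3* and *Fos*) and 5 by TGF-β (*Fosl1*, *Egr1*, *Egr3*, *Jun* and *Fos*). All of them except *Fos* were on the lower side. Of the 9226 better expressed rows, 32.2% (GDF15) and 33.5% (TGF-β) lay beyond 1 local spread in either direction, so the count of members by GDF15 was near that of other genes. The share of rows on the lower side alone was not calculated.

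**Figure D2:**
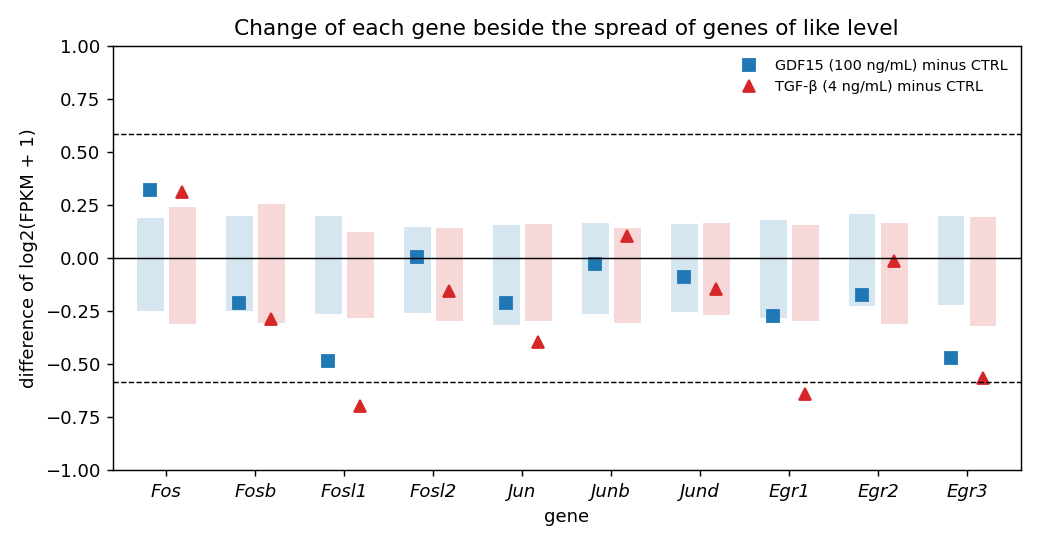
Difference of log2(FPKM + 1) from CTRL for each member by GDF15 (squares) and TGF-β (triangles). Shaded boxes are the median plus and minus 1 local spread of the rows nearest in mean expression, and dashed lines mark 1.5-fold. Only *Fosl1* and *Egr1* in TGF-β lie past a dashed line, at -0.70 and -0.64.

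In the Fos family, *Fosl1* had the largest change of the 10 members on the log2(FPKM + 1) scale, whereas *Egr3* was further from CTRL by the ratio of FPKM. *Fosl1* lies on chromosome 19 of GRCm38 (5447547 to 5455946, plus strand), and its product Fra-1 lacks the strong activation domain of Fos. Its FPKM was 17.1 in CTRL, 11.9 with GDF15 and 10.2 with TGF-β. Both stimulated libraries were below CTRL, TGF-β further than GDF15. Its change was -0.48 with GDF15 and -0.70 with TGF-β, or 1.95 and 3.03 times the local spread below the median of genes of like level. Only 8 and 4 of the 500 rows nearest in expression had a lower change. The FPKM ratio to CTRL was 0.698 (95% counting interval 0.615 to 0.794) in GDF15 and 0.594 (0.515 to 0.685) in TGF-β. Genes with transcripts of 1500 to 2000 bases, the class of *Fosl1* (1864 bases), had a median change of -0.13 in both comparisons, and with the running median by transcript length subtracted *Fosl1* was at -0.58 with TGF-β, just under 1.5-fold. The exons of *Fosl1* overlap those of *Ccdc85b*, a gene on the opposite strand, over 1055 bases. *Ccdc85b* was at an FPKM of 15.5, 10.4 and 8.14, with changes of -0.53 and -0.85. Whether strand was used in counting is not given in the sources used here, and if it was not, reads of these genes cannot be told apart.

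*Fosl2* (chromosome 5, 32135801 to 32157842, plus strand), whose product Fra-2 is a close relative of Fra-1, was the most abundant Fos gene, with an FPKM of 41.6 in CTRL, 41.9 with GDF15 and 37.4 with TGF-β. CTRL and GDF15 were nearly equal (ratio 1.005, counting interval 0.966 to 1.05), and TGF-β was slightly lower (0.897, 0.859 to 0.936). Both changes, 0.01 and -0.15, lay within 1 local spread.

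*Fos* itself (chromosome 12, 85473890 to 85477273, plus strand), the classical serum-induced gene, was the only member that was higher in both stimulated libraries in the FPKM as deposited. *Junb* was so too with FPKM scaled to a common upper quartile (0.00 and 0.17) or to a common sum (0.08 and 0.19), and with either running median subtracted. The FPKM of *Fos* was 0.734 in CTRL, 1.16 with GDF15 and 1.16 with TGF-β. These values correspond to an estimated 26.4, 48.8 and 39.6 fragments. The ratio to CTRL was 1.58 with a counting interval of 0.982 to 2.70 in GDF15, and 1.57 (0.960 to 2.75) in TGF-β, so a difference was not detectable at this depth. *Fosb* (chromosome 7, 19302696 to 19310051, minus strand), another early gene, had an FPKM of 1.12, 0.833 and 0.737, and differed from *Fos* in its direction. Its ratio was 0.744 (0.525 to 1.06) in GDF15 and 0.657 (0.441 to 0.963) in TGF-β, from an estimated 72.2, 62.8 and 45.3 fragments. Its changes of -0.21 and -0.29 were within 1 local spread.

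Summed over the family, the FPKM of the 4 Fos genes was 60.6 in CTRL, 55.8 with GDF15 and 49.4 with TGF-β, which is 7.96% and 18.5% below CTRL. The FPKM sum of all rows was itself 7.42% and 6.21% below CTRL, and at a common sum the Fos family was 0.582% below CTRL with GDF15 and 13.1% with TGF-β. *Fosl2* made up 68.7% of this sum in CTRL, 75.0% with GDF15 and 75.6% with TGF-β. The share of *Fosl1* was 28.2%, 21.4% and 20.6% in the same order. *Fos* and *Fosb* together stayed minor, with *Fos* between 1.21% and 2.34% and *Fosb* between 1.49% and 1.85%.

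**Figure D3:**
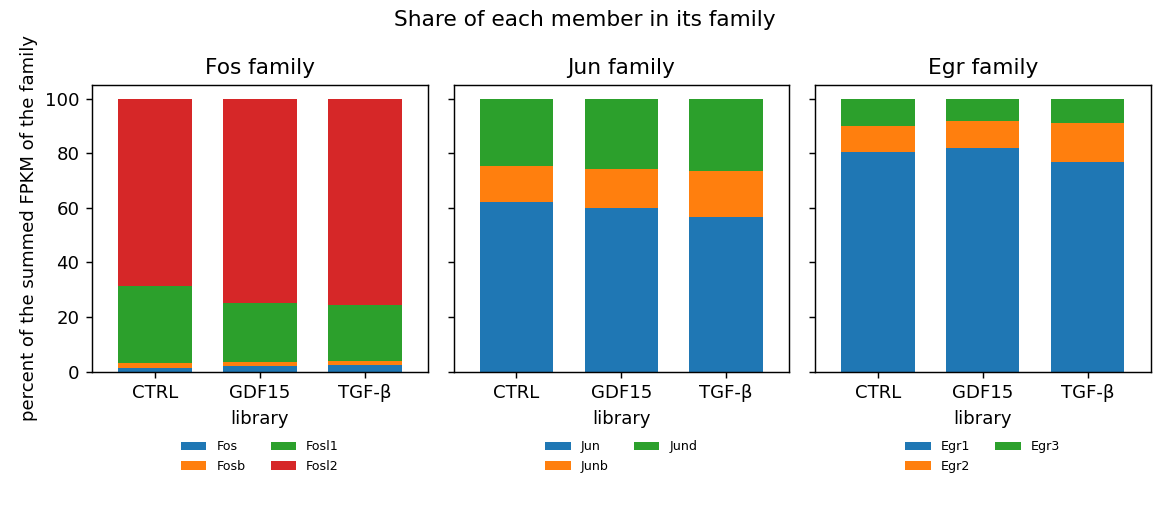
Share of each member in the summed FPKM of its family, in percent, for the CTRL, GDF15 and TGF-β libraries. *Fosl2* makes up 68.7% to 75.6% of the Fos family, *Jun* 56.5% to 62.3% of the Jun family and *Egr1* 76.7% to 81.8% of the Egr family.

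In the Jun family, *Jun* had an FPKM of 94.4 in CTRL, 81.4 with GDF15 and 71.6 with TGF-β. This single-exon gene on chromosome 4 (95049034 to 95052222, minus strand) encodes the Jun protein with the strongest activity in AP-1. The level stepped down from CTRL to GDF15 to TGF-β. The changes were -0.21 and -0.39, of which the latter was 1.43 times the local spread below the median of genes of like level. The ratio to CTRL was 0.863 (0.830 to 0.897) in GDF15 and 0.758 (0.727 to 0.791) in TGF-β. At a common FPKM sum the change by GDF15 was -0.10 and that by TGF-β -0.30.

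*Junb* (chromosome 8, 84974484 to 84978718, minus strand), whose product can restrain Jun on some promoters, was between 19.4 and 21.3 in all libraries. Its FPKM was 19.7 in CTRL, 19.4 with GDF15 and 21.3 with TGF-β, with ratios of 0.981 (0.879 to 1.10) and 1.08 (0.965 to 1.21). Exons of *Junb* overlap those of *Prdx2* on the opposite strand over 173 bases, and *Prdx2* had an FPKM of 117, 100.3 and 96.7. *Jund* (chromosome 8, 70698949 to 70700616, plus strand), the family member found in resting cells, was at 37.5, 35.1 and 33.8. Its changes of -0.09 and -0.15 were within 1 local spread. The sign of the small changes of *Junb* and *Jund* by GDF15 turned positive when the FPKM of each library were scaled to the same sum (0.08 and 0.02). Antisense genes also overlap exons of *Jun* (*Junos*, over 232 bases) and of *Jund* (*Gm11175*, over 543 bases), and neither has a row among those analysed here.

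The 3 Jun genes summed to an FPKM of 152 in CTRL, 136 with GDF15 and 127 with TGF-β, which is 10.3% and 16.4% below CTRL, or 3.13% and 10.9% at a common sum. The share of *Jun* in the family was 62.3%, 59.9% and 56.5%, and that of *Junb* 13.0%, 14.3% and 16.8%. The ratio of summed Jun to summed Fos FPKM was 2.50 in CTRL, 2.44 with GDF15 and 2.56 with TGF-β.

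Of the Egr genes, *Egr1* (chromosome 18) had an FPKM of 27.4 in CTRL, 22.4 with GDF15 and 17.2 with TGF-β. Its product is the founding Egr factor and is induced by growth factors in fibroblasts. The 3 libraries again stepped down, and TGF-β was well below GDF15. Its change was -0.28 with GDF15, within 1 local spread of the genes of like level, and -0.64 with TGF-β, 2.52 times the local spread below them. The ratio to CTRL was 0.820 (0.771 to 0.872) and 0.629 (0.5854 to 0.674). At a common sum the change by GDF15 was -0.17. The 1.5-fold call by TGF-β depended on scaling, because the change was -0.57 after scaling to a common upper quartile and -0.55 after scaling to a common sum.

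*Egr3* (chromosome 14, 70077203 to 70082614, plus strand), a related zinc finger factor and early gene, had an FPKM of 3.48 in CTRL, 2.23 with GDF15 and 2.03 with TGF-β. Both stimulated libraries were below CTRL and close to each other. The changes were -0.47 and -0.56, or 2.22 and 1.93 times the local spread below genes of like level. Because the level is low, these changes grew to -0.64 and -0.78 without a pseudocount, past 1.5-fold by both stimuli. The ratio to CTRL was 0.641 (0.525 to 0.784) in GDF15 and 0.584 (0.468 to 0.727) in TGF-β. *Egr2* (chromosome 10, 67535475 to 67542188, plus strand), known for its part in myelination by Schwann cells and also an early gene in fibroblasts, was at 3.23, 2.75 and 3.18, and CTRL and TGF-β were nearly equal (ratio 0.986, 0.783 to 1.23). The summed FPKM of the 3 Egr genes was 34.1, 27.4 and 22.4, which is 19.5% and 34.2% below CTRL, or 13.1% and 29.8% at a common sum. *Egr1* made up 80.3%, 81.8% and 76.7% of it.

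Across the families, 6 of the 10 members (*Fosb*, *Fosl1*, *Jun*, *Jund*, *Egr1* and *Egr3*) were in the order CTRL over GDF15 over TGF-β, and 0 were in the opposite order. Among the 9226 better expressed rows, 29.6% had the first order and 13.7% the second. By counting error alone, the ratio to CTRL had an interval below 1 for 4 members in GDF15 (*Fosl1*, *Jun*, *Egr1* and *Egr3*) and for 7 in TGF-β (these 4 with *Fosb*, *Fosl2* and *Jund*). Intervals above 1 were found for 0 members. The FPKM were used as deposited, and their sum over all rows was 7.42% (GDF15) and 6.21% (TGF-β) below CTRL. The upper limits of *Fosb*, *Fosl2* and *Jund* in TGF-β (0.963, 0.936 and 0.986) were near 1. Intervals at a common sum were not calculated. Of 9194 better expressed rows with a transcript length, 29.9% had an interval below 1 by GDF15 and 36.1% by TGF-β, and 22.9% and 18.0% had one above 1. In *Jund* the order did not hold with FPKM scaled to a common sum, where its change by GDF15 was 0.02.

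The stimulated libraries were also compared directly, without CTRL. No member differed by 1.5-fold between TGF-β and GDF15, where 1.02% of all rows did, and 8 of the 10 were lower with TGF-β, where 60.3% of the better expressed rows were. The largest difference was that of *Egr1*, with an FPKM of 17.2 in TGF-β against 22.4 in GDF15. The change of -0.36 was 2.22 times the local spread below genes of like level, and 8 of the 500 nearest rows had a lower one. *Jun* was lower in TGF-β (71.6 against 81.4, a change of -0.18, 1.303 times the local spread), as was *Fosl1* (10.2 against 11.9, a change of -0.21, 1.12 times). *Egr2* and *Junb* were higher in TGF-β, by 0.16 and 0.13, which was 1.32 and 1.21 times the local spread above genes of like level. The counting interval of the *Egr2* ratio (1.16, 0.917 to 1.44) and that of the *Junb* ratio (1.10, 0.987 to 1.23) both included 1. Intervals lay below 1 for 4 members (*Fosl1*, *Fosl2*, *Jun* and *Egr1*) and above 1 for 0. The share of all rows with such intervals was not calculated for this comparison. *Fos* was nearly the same in both libraries, with a ratio of 0.993 (0.642 to 1.55).

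The genes whose pair of changes was nearest to that of the 2 members past 1.5-fold were looked up among genes within 2-fold in mean FPKM and outside the gene lists below. For *Fosl1* these were *Ldb2*, *Rhebl1* and *Acyp1*, at Euclidean distances of 0.02, 0.02 and 0.03 on the log2 scale. *Ldb2*, for example, had an FPKM of 15.01, 10.3 and 8.80 in CTRL, GDF15 and TGF-β. For *Egr1* they were *Clip3*, *Errfi1* and *Tnfsf12*, at distances of 0.01, 0.02 and 0.02. *Errfi1*, a feedback inhibitor of the EGF receptor, had an FPKM of 22.1, 17.8 and 13.7. Likeness over 3 libraries is weak, since 19 of 4362 genes lay within 0.1 of *Fosl1* and 21 of 3761 within 0.1 of *Egr1*.

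Regulators upstream of these genes, and dimer partners of AP-1 proteins, were listed in 3 groups. The groups are to be read against the 1.81% (GDF15) and 3.60% (TGF-β) of all rows past 1.5-fold. At those shares, counts of 0 are not distinctive for lists this short. Of 9 genes for SRF, ternary complex factors and the CREB family, 0 passed 1.5-fold by either stimulus, and the median change of the 9 was 0.05 by GDF15 and -0.06 by TGF-β. *Srf*, which binds the CArG box, had an FPKM of 9.65, 8.69 and 7.40, a change of -0.14 and -0.34. Of 11 genes for MAP kinases and their activators, 0 passed, and the median of the 10 above a mean FPKM of 1 was 0.02 and -0.01. Of 12 further dimer partners of AP-1 proteins, 0 passed, and the median of 7 above a mean FPKM of 1 was -0.01 by GDF15 and 0.19 by TGF-β. *Egr4* and *Wt1* were listed at 0 in the 3 libraries, while the corepressor genes were expressed, with an FPKM between 27.5 and 29.3 for *Nab2* and between 12.5 and 13.9 for *Nab1*.

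Other immediate early genes differed in direction. Of 20 listed, 2 were higher past 1.5-fold by GDF15 (0.791% of all rows) and 3 by TGF-β (1.65% of all rows), with 0 and 1 lower (1.02% and 1.95% of all rows). The median of the 17 above a mean FPKM of 1 was 0.00 and 0.03. *Cyr61*, which encodes a matricellular CCN protein, had an FPKM of 3.37 in CTRL, 7.005 with GDF15 and 10.7 with TGF-β, a change of 0.87 and 1.42. Its relative *Ctgf* had the largest changes of the list, 2.08 and 2.96, from an FPKM of 9.03 to 41.3 and 77.3. *Gadd45b*, a stress gene and known target of TGF-β signalling, had an FPKM of 3.97, 6.08 and 12.1, a change of 0.51 and 1.39. With the length trend subtracted its change by GDF15 was 0.70, past 1.5-fold, and the list then held 3 genes past 1.5-fold by GDF15, as it did at a common FPKM sum. *Ier5* was the gene past 1.5-fold on the lower side by TGF-β, with an FPKM of 22.4, 14.9 and 11.9 and changes of -0.56 and -0.86.

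**Figure D4:**
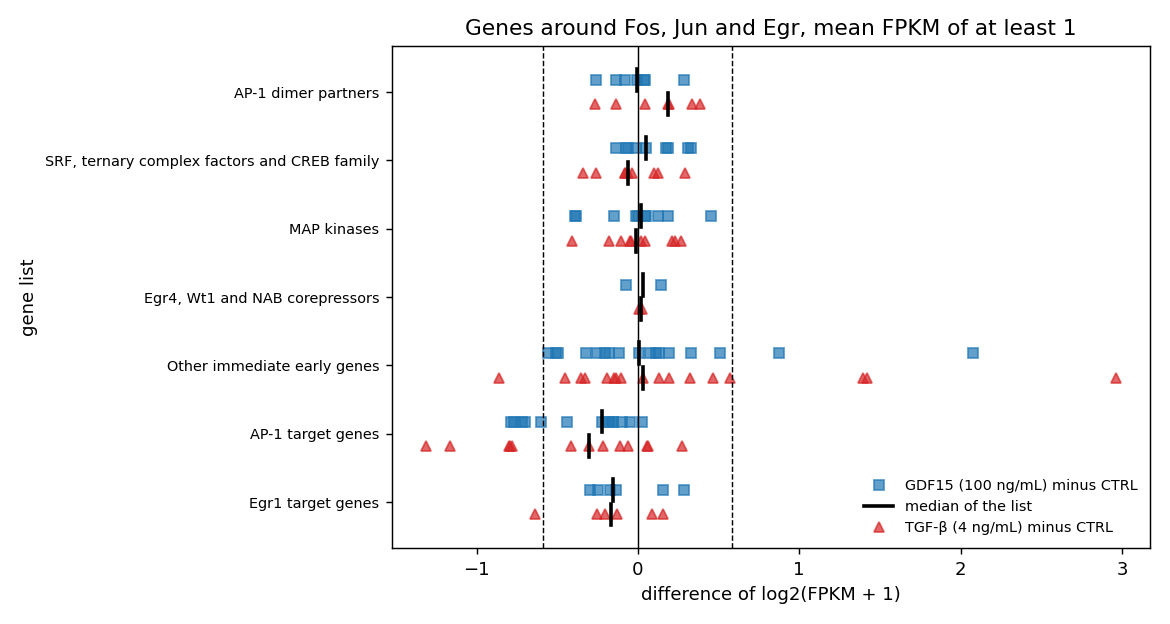
Difference of log2(FPKM + 1) from CTRL of the genes in 7 lists around the members (mean FPKM of 1 or more) by GDF15 (squares) and TGF-β (triangles). Black bars are list medians and dashed lines mark 1.5-fold, and the AP-1 target list has medians of -0.22 and -0.30 while *Ctgf* lies farthest right.

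Of 17 textbook target genes of AP-1, 5 were lower past 1.5-fold by GDF15, where 1.02% of all rows were, and 5 by TGF-β, where 1.95% were, and 0 were higher by either. The median change of the 13 above a mean FPKM of 1 was -0.22 and -0.30. By GDF15 it was -0.11 at a common FPKM sum and -0.10 with the length trend subtracted. *Spp1*, the osteopontin gene, had an FPKM of 556 in CTRL, 322 with GDF15 and 224 with TGF-β, with changes of -0.78 and -1.31. *Prl2c2*, one of the proliferin genes, was at 120.3, 70.3 and 53.0, with changes of -0.77 and -1.17, and may share reads with its near-identical paralogs. The metallothionein genes *Mt1* (633, 416 and 368) and *Mt2* (450, 276 and 259) were lower in both stimulated libraries, with changes by TGF-β of -0.78 and -0.79. *Plaur*, the urokinase receptor, was at 19.7, 11.6 and 14.6 and passed only by GDF15 (-0.72), and the protease gene *Mmp9*, at 1.60, 0.921 and 0.496, passed only by TGF-β (-0.80). The difference between the stimuli was not past 1.5-fold for either gene (0.31 and -0.36). Another listed target, the hyaluronan receptor gene *Cd44*, was nearly level at 45.6, 46.6 and 47.7. Changes in these libraries were also more positive for longer transcripts, and *Mt1*, *Mt2* and *Prl2c2* have short ones (1085, 511 and 842 bases). Over 5405 genes with a mean FPKM of 10 or more (genes do not replicate one another), Spearman's rho was 0.52 for GDF15 and 0.26 for TGF-β. With that trend subtracted, *Spp1* alone of the list passed 1.5-fold by GDF15 (-0.64), and *Plaur* was at -0.58. By TGF-β the same 5 targets passed with the trend subtracted, from -1.17 (*Spp1*) to -0.59 (*Mt2*). The part of transcript length in the values of these targets was not tested further.

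Of 9 textbook target genes of Egr1, 0 passed 1.5-fold by GDF15 and 1 by TGF-β, where 1.81% and 3.60% of all rows did. This was *Igf2*, a fetal growth factor gene, with an FPKM of 10.4 in CTRL, 9.13 with GDF15 and 6.36 with TGF-β and changes of -0.18 and -0.64. It did not pass by TGF-β with FPKM scaled to a common upper quartile (-0.58) or a common sum (-0.55), or with the running median by expression subtracted (-0.53). The median of the 6 above a mean FPKM of 1 was -0.16 and -0.17, and -0.05 and -0.08 at a common FPKM sum. Over all alternatives it ran from -0.17 to -0.05 by each stimulus. The endogenous *Gdf15* gene, also on this list, was hardly expressed, at 0.121, 0.104 and 0.0636.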

How the data were processed

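RNA of NIH3T3 fibroblasts was pooled by treatment (3 RNA samples were prepared) and sequenced as 1 stranded mRNA library each, with single-end reads of 50 bases. The authors deposited FPKM computed with Cufflinks for UniProt-reviewed protein coding genes. The submitters' processing notes also list TopHat 1.3.2, Bowtie 0.12.9, Cufflinks 2.0.2 and mm10. The gene annotation and the strand setting are not given in the sources used here.

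The table holds 15554 rows. Changes are differences of log2(FPKM + 1), computed on all rows, and are set against criteria of 2-fold and 1.5-fold. Members, gene lists and named genes (list members past 1.5-fold, the 6 largest where more passed, and the 3 nearest patterns) were chosen with earlier results of these data known. Genes outside this rule were named after their values were seen. Libraries were matched to treatments by column name and sample title.

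Fragment numbers are FPKM times the longest coding transcript of GENCODE M21 (GRCm38, 15474 rows matched) times the estimated depth, and are approximate for genes with several transcripts. Depth came from genes with a single transcript over 1500 bases. Alternatives were pseudocounts of 0.5, 0.1 and none, an expression minimum (mean FPKM of 1), one upper quartile for all libraries, and subtraction of a running median along expression. One FPKM sum for all libraries and subtraction of a running median along length were added after seeing the data. The calculation of changes and spreads was tested on simulated data. Software was Python 3.11.15, matplotlib 3.10.9, scipy 1.17.1, pandas 2.3.3 and numpy 2.4.6.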

Additional observations from a re-analysis of the deposited data

How the results depend on the processing

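No paired analysis was possible because a treatment is represented by a single pool, and leaving out a library would remove a treatment. Under all 8 alternatives 0 members passed 2-fold by either stimulus. Of 156 values of single members under the alternatives, 151 differed from the reported value by less than the local spread, 5 by more (values of *Fos* and *Fosb* at small or no pseudocount), and 11, all of *Egr2*, *Fosl2*, *Junb* and *Jund*, had another sign. The number of members past 1.5-fold depended on the settings. By GDF15 it was 2 instead of 0 at a pseudocount of 0.1 and also without a pseudocount. By TGF-β it was 3 at a pseudocount of 0.5, 4 at 0.1 and 5 without one. It was 1 instead of 2 with a common upper quartile, a common sum, or the running median by expression or by length subtracted. The share of rows past 1.5-fold by TGF-β was 4.82% at a pseudocount of 0.5, and 3.45%, 3.43%, 3.42% and 5.20% in the last 4 settings. Shares at smaller pseudocounts are given below. *Fosl1* by TGF-β ran from -0.75 to -0.58 and *Egr1* from -0.67 to -0.55.

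Among the lists, the AP-1 targets past 1.5-fold by GDF15 were 8 at a pseudocount of 0.1, 3 with the running median by expression subtracted and 1 with that by length. Other immediate early genes past 1.5-fold by GDF15 were 5 at 0.1 and 6 without a pseudocount. By TGF-β they were 5 instead of 4 with either scaling or either running median, where *Klf4* passed. AP-1 partners were 2 by GDF15 and 1 by TGF-β in both settings, and MAP kinases 1 by TGF-β without a pseudocount. Egr1 targets were 1 by GDF15 in both settings, and by TGF-β 2 without a pseudocount and 0 with a common upper quartile, a common sum or the running median by expression subtracted. At a pseudocount of 0.1, 7.07% (GDF15) and 9.93% (TGF-β) of all rows pass 1.5-fold, and without one 12.0% and 15.4% of the 11081 rows above 0 in all libraries. Beyond the construction of each alternative, the cause of these differences was not tested. Depth limits *Fos*, with an estimated 26.4 fragments in CTRL.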

Other observations

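Small Maf proteins lack an activation domain and pair with one another or with larger bZIP factors. These genes, the early gene *Klf4* and the angiogenic factor gene *Vegfa* were chosen after their values were seen. The FPKM of *Maff* was 9.23 in CTRL, 8.66 with GDF15 and 12.4 with TGF-β. The TGF-β library alone was higher, and its change from GDF15 was 0.47, or 3.43 times the local spread above genes of like level. *Mafk* was at 11.5, 11.9 and 14.7, with a change between the stimuli of 0.29, or 2.39 times the local spread. *Mafg*, the most abundant of the 3 genes, was at 44.2, 36.9 and 40.2, and was highest in CTRL.

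*Klf4*, an early gene for a zinc finger factor, had an FPKM of 85.0, 97.3 and 127, a change of 0.19 by GDF15 and 0.57 by TGF-β, just under 1.5-fold. With FPKM scaled to a common upper quartile or sum, or with either running median subtracted, the change by TGF-β was between 0.63 and 0.66, past 1.5-fold. *Vegfa* was lower in GDF15 than in CTRL (22.6 against 27.0) and higher in TGF-β (30.2). Its change by GDF15 (-0.25) was within 1 local spread, and that by TGF-β (0.16) was 1.21 times the local spread above genes of like level. The change between the stimuli was 0.40, or 3.28 times the local spread.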
